A study of Rattus norvegicus with 12 samples.

Results

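miR-325 and miR-130a are 2 of the 154 microRNAs (miRs) read in rat dorsal root ganglia (DRG) after 2 variants of the spared nerve injury (SNI). They were taken by assay name (mmu-miR-325 and mmu-miR-130a), and were of interest because an earlier reading of these same arrays had placed them higher after the injury that spares the sural nerve. The values that separate the 3 surgical groups therefore chose them, and are given below as a description, with no independent test. They are array values alone: the authors' separate qPCR of both miRs was not analysed here, and nothing below shows that the difference holds in another assay. The ganglion level and the seed relatives of miR-130a played no part in that choice and were tested.

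The arrays came from adult male Sprague-Dawley rats at Day 23 after surgery. In Sural-SNI the common peroneal and tibial branches of the sciatic nerve were tied and cut, which left the sural nerve. In Tibial-SNI the common peroneal and sural branches were tied and cut, which left the tibial nerve. In Sham rats the nerve was exposed and left uncut. Each of the 12 arrays read the RNA of a single L3-DRG or L4-DRG, with replicates numbered 1 and 2, so that each group holds 4 arrays and each group at each level holds 2. The labels do not say whether a number stands for an animal, so the spread between arrays may be partly technical. A ganglion holds neurons, glia, vessels and blood cells, and fewer cells of a type cannot be told apart from less RNA per cell.

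A miR is a short RNA that is cut from a hairpin precursor, is loaded into an Argonaute protein and represses mRNAs that pair with it, mainly through its seed, the bases near its 5′ end. miR-325 comes from the X chromosome, and its hairpin lies near that of miR-384. miR-130a belongs with miR-130b, miR-301a and miR-301b to a family that shares a seed, and is known from endothelium, where it represses GAX and HOXA5 and favours vessel growth. miRs with the same seed can share many targets, which is why the relatives are shown next to miR-130a.

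The sequences below are the rat mature forms in RefSeq (build GRCr8), 5′ to 3′, with the seed (bases 2 to 8) in capitals. The assays carry mouse names, and the study's methods give the arms of both as 3p. They are shown because they set miR-325 apart by seed and show how little separates miR-130a from miR-130b.
rno-miR-325-3p: uUUAUUGAgcaccuccuaucaa
rno-miR-130a-3p: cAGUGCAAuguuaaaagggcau
rno-miR-130b-3p: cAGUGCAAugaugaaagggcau
rno-miR-301b-3p: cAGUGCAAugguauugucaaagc
rno-miR-19a-3p: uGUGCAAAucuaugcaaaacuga
rno-miR-148a-3p: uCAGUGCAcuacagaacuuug
miR-325-3p lies at chrX:74523537-74523558 on the minus strand, within the long non-coding RNA gene LOC103690870, which also holds miR-384, the hairpins being 32542 bases apart. miR-130a-3p lies at chr3:90229240-90229261 on the minus strand, between genes, and the nearest protein-coding gene on its lower side is Ypel4, 1832 bases away. miR-130b-3p lies at chr11:97384430-97384451 and miR-301b-3p at chr11:97384077-97384099, both on the plus strand within 2610318N02Rikl, with 269 bases between their hairpins. The hairpin of miR-301a lies within Ska2 and Prr11.

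Among the 693 rat mature sequences read here, which do not include miR-301a-3p, the seed AGUGCAA was held by 3 (0.433%), namely miR-130a-3p, miR-130b-3p and miR-301b-3p. That count is therefore not the whole family. The seed UUAUUGA was held by miR-325-3p alone, 1 of the 693 (0.144%). Counting from 1 at the 5′ end of miR-130a-3p, miR-130b-3p differed by U11A and A13G and was identical at the other 20 of 22 bases. miR-301b-3p was identical to miR-130a-3p at 13 of 22 bases. The seed of miR-19a shares 6 bases in a row with that of miR-130a, shifted by 1 position, and so does the seed of miR-148a, shifted the other way.

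The measurement was the Ct, the PCR cycle at which an assay's fluorescence crosses its threshold, so a later Ct means less miR and a difference of 1 is a doubling where amplification is complete. Up to 40 cycles were run and no Ct limit was set. In L3-DRG replicate 1 the Ct of miR-325 was 33.19 in Sural-SNI, 34.29 in Sham and 35.99 in Tibial-SNI. In L3-DRG replicate 2 it was 32.07, 32.99 and 33.16 in the same order of groups.

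In L4-DRG replicate 1 the Ct of miR-325 was 31.53 in Sural-SNI, 32.75 in Sham and 34.37 in Tibial-SNI. In L4-DRG replicate 2 it was 31.51, 32.48 and 33.50. Before any reference assay was used, miR-325 was thus earliest in Sural-SNI and latest in Tibial-SNI in each of the 4 sets of arrays that share a level and a number. The mean Ct of all miRs had the same order in every set but L3-DRG replicate 2, so elsewhere the raw order was not particular to miR-325. That mean was 28.95, 29.41 and 30.40 in L4-DRG replicate 1, and 28.04, 28.37 and 27.47 in L3-DRG replicate 2.

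miR-130a behaved less evenly. In L3-DRG replicate 1 its Ct was 33.97 in Sural-SNI, 36.32 in Sham and 37.88 in Tibial-SNI, and in L4-DRG replicate 1 it was 32.72, 34.29 and 34.73. In L3-DRG replicate 2 it was 30.37, 30.68 and 30.27, and in L4-DRG replicate 2 it was 29.25, 30.51 and 30.37. All 6 arrays numbered 1 were later than all 6 numbered 2, and in replicate 2 of L3-DRG the Tibial-SNI array was the earliest of its set, by 0.10 of a cycle before Sural-SNI.

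**Figure D1:**
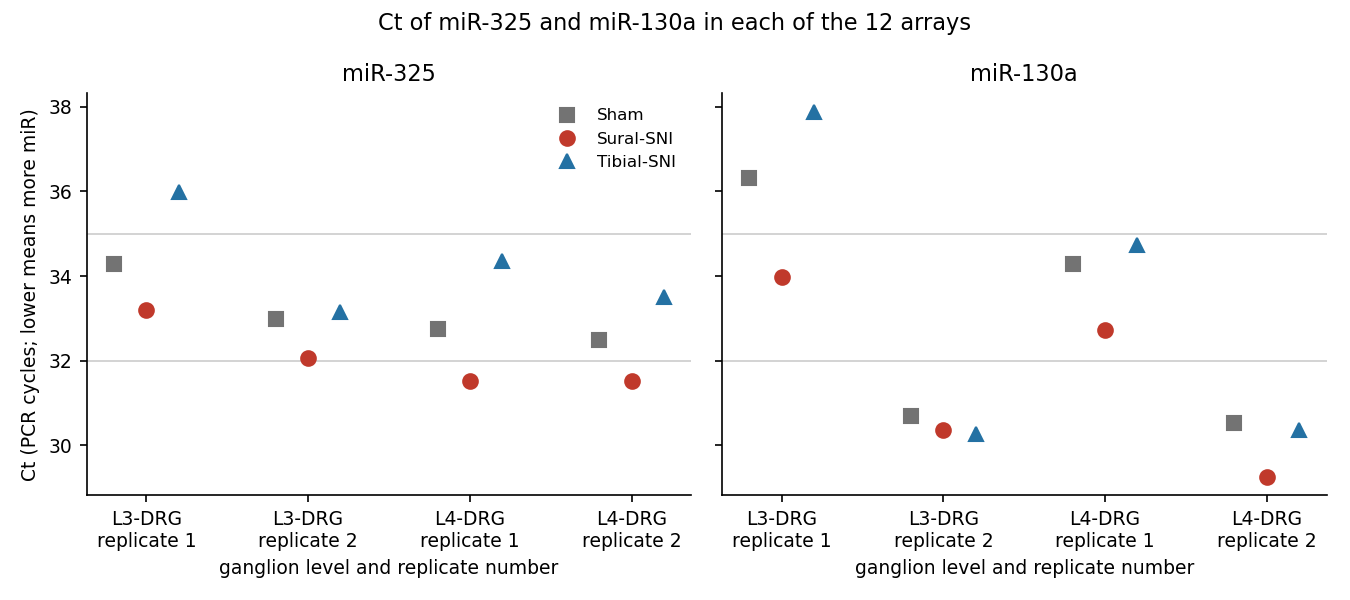
Ct in PCR cycles (y axis, lower means more miR) of miR-325 and miR-130a in the 12 arrays, by ganglion level and replicate number (x axis); each point is 1 array and the grey lines mark Ct 32 and 35. miR-325 keeps the order Sural-SNI, Sham, Tibial-SNI in all 4 sets, while miR-130a shifts by 4.74 cycles between the replicate numbers. The mean Ct of all miRs has that order too, except in L3-DRG replicate 2.

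Both miRs were read late. A Ct of 32 or later was seen in 10 of 12 arrays for miR-325, and in 6 of 12 for miR-130a, all 6 of them numbered 1. A Ct of 35 or later was seen for miR-325 in 1 array, the Tibial-SNI L3-DRG replicate 1, and for miR-130a in that array and in the Sham L3-DRG replicate 1. Over all miRs, 33 of 1848 values were that late, 28 of them in arrays numbered 1, and they came from 20 of the 154 miRs.

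The latest single value of miR-130a ranked 3rd among the 154 miRs and that of miR-325 ranked 9th. Only miRs detected on all 12 arrays are among the 154, so weaker miRs may have no rank. By mean Ct over the 12 arrays, miR-325 (33.2) was 5th latest and miR-130a (32.6) was 9th latest. The shift between the replicate numbers separated the pair. The mean Ct of number 1 exceeded that of number 2 by 1.07 cycles for miR-325 and by 4.74 for miR-130a, against a median of 2.05 over all miRs, which places miR-130a 10th of 154.

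The level of a miR was then taken as −ΔCt, the mean Ct of the reference RNAs MammU6, snoRNA135 and U87 minus the Ct of the miR, on a log2 scale. In Sham the level of miR-325 was −8.00 ± 0.41 (SD, n = 4) and that of miR-130a was −7.83 ± 2.03, ranks 149 and 148 of 154 from the highest. The neighbours in that order were rno-miR-207 above, at −7.78 ± 1.91, and miR-130b below, at −8.44 ± 1.77. The 4 Sham arrays of miR-325 lay between −8.34 and −7.41, while those of miR-130a ran from −10.11 to −5.87. Differences between these neighbours were smaller than the SD of at least one of each pair, so their order was not resolved, and ranks across assays also take amplification to be alike.

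The hairpin neighbour of miR-325 stood far above it. miR-384-5p, whose seed is unlike that of miR-325, had a Sham level of −0.28 ± 0.35, rank 19 of 154. Of the seed relatives, miR-301a was the highest in Sham at −3.87 ± 1.06 (rank 71), followed by miR-301b at −5.66 ± 1.38 (rank 112). miR-130a and miR-130b, which differ by 2 bases, held ranks 148 and 150.

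**Figure D2:**
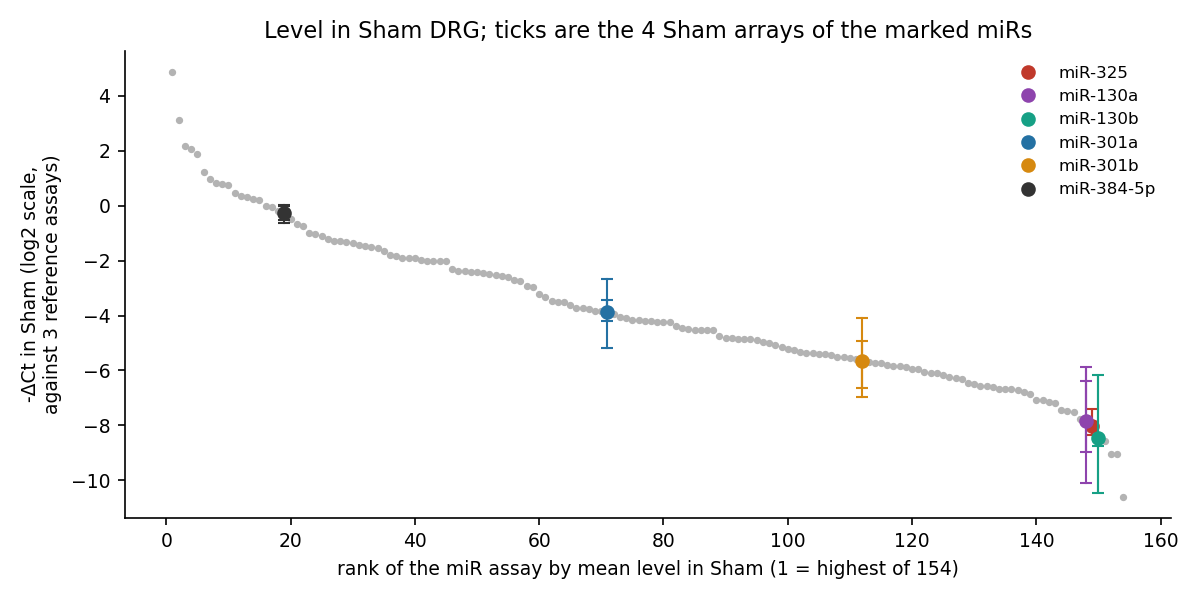
Level in Sham (y axis, −ΔCt on a log2 scale) against rank (x axis) for the 154 miRs; each grey dot is the mean of 4 Sham arrays of 1 miR, and the vertical lines with ticks show the 4 arrays of the marked miRs. miR-325 and miR-130a sit at ranks 149 and 148, next to miR-130b, with miR-384-5p at rank 19.

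In Sural-SNI the level of miR-325 was −7.32 and −7.37 in L3-DRG and −6.63 and −7.61 in L4-DRG, replicates 1 and 2 in order. In Sham it was −8.08 and −8.18 in L3-DRG, then −7.41 and −8.34 in L4-DRG. In Tibial-SNI it was −9.13 and −8.95 in L3-DRG, then −7.94 and −8.86 in L4-DRG. The lowest Sural-SNI array was above the highest Tibial-SNI array, whereas Sham overlapped with both.

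The log2(fold change) set each SNI array against the Sham array of the same level and number, so the values of both injuries share their Sham arrays. For miR-325 it was 0.76 and 0.80 in L3-DRG and 0.78 and 0.74 in L4-DRG of Sural-SNI, a mean of 0.77 ± 0.03 (SD, n = 4). In Tibial-SNI it was −1.05 and −0.77 in L3-DRG and −0.53 and −0.52 in L4-DRG, a mean of −0.72 ± 0.25. All 4 Sural-SNI values were above 0 and all 4 Tibial-SNI values were below 0.

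Of the 154 miRs, 1 (0.649%) had every Sural-SNI value above every Tibial-SNI value, and it was miR-325. The same count and share held for values all above 0 in Sural-SNI and all below 0 in Tibial-SNI. All 4 Sural-SNI values were above 0 in 16 miRs (10.4%), and all 4 Tibial-SNI values were below 0 in 5 (3.25%). Since miR-325 was chosen on this contrast, nothing is read from its being the one that combined both.

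The SD of 0.03 in Sural-SNI was the smallest of the 154 miRs, whose median was 0.55. That closeness held for the mean of the 3 references, for which the lowest of the 4 values was 0.74. Against MammU6 the lowest value was 0.56, against snoRNA135 it was 0.56, and against the mean of all miRs it was 0.31. A lowest value moves with the mean as well as the spread, and the means against these references are given at the end. In Tibial-SNI the SD of 0.25 ranked 14th from the lowest. The contrast that chose miR-325 depends on these SDs, so nothing is read from their ranks.

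miR-130a in Sural-SNI had a level of −8.10 and −5.67 in L3-DRG and of −7.83 and −5.34 in L4-DRG. In Sham it was −10.11 and −5.87 in L3-DRG, then −8.96 and −6.38 in L4-DRG. In Tibial-SNI it was −11.02 and −6.06 in L3-DRG, then −8.30 and −5.73 in L4-DRG. The 3 groups overlapped, and in each of them the arrays numbered 1 were lower than those numbered 2.

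Its log2(fold change) in Sural-SNI was 2.01 and 0.20 in L3-DRG and 1.13 and 1.04 in L4-DRG, a mean of 1.09 ± 0.74 (SD, n = 4). In Tibial-SNI it was −0.91 and −0.18 in L3-DRG and 0.66 and 0.65 in L4-DRG, a mean of 0.05 ± 0.75. The Sural-SNI values were all above 0, while the Tibial-SNI values were below 0 at L3 and above 0 at L4, so the mean near 0 was made of opposite values. The ranges of the injuries overlapped, since the lowest Sural-SNI value, 0.20, was under 2 of the Tibial-SNI values.

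**Figure D3:**
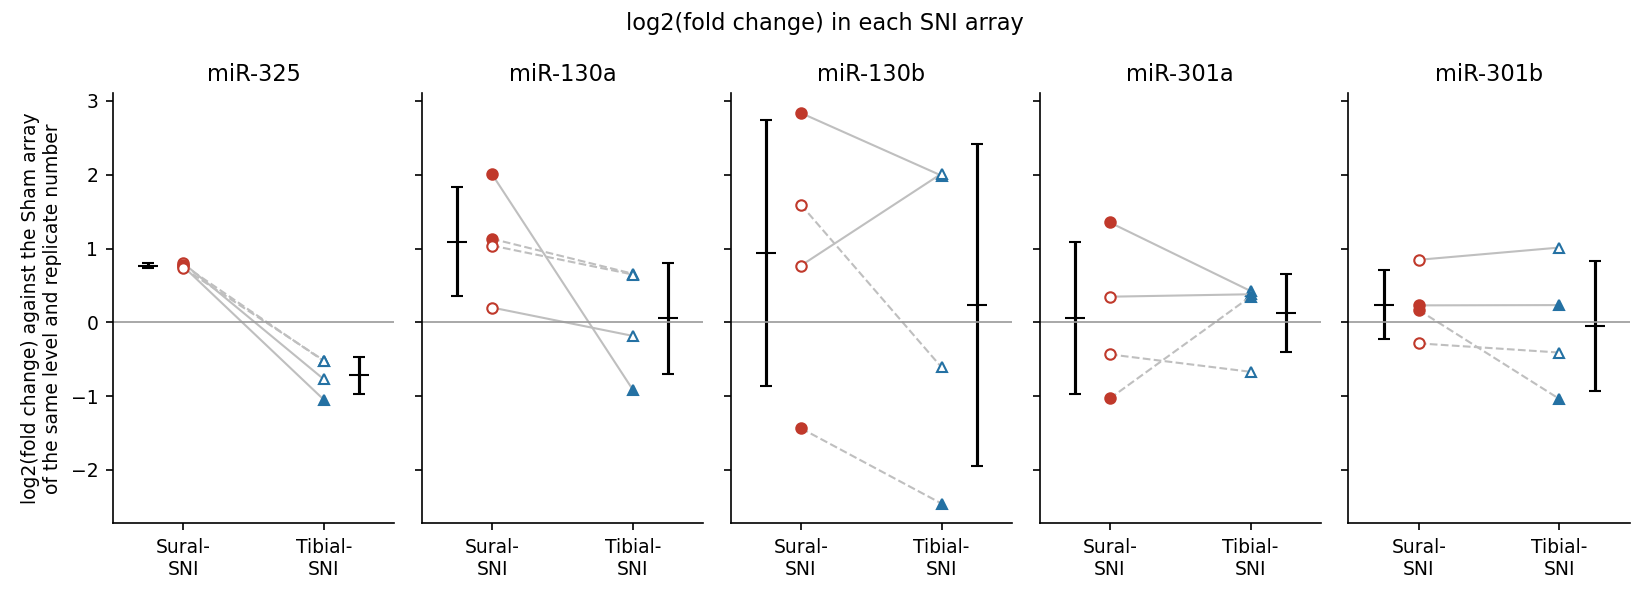
log2(fold change) against the Sham array of the same level and number (y axis) in the 4 Sural-SNI (red circles) and 4 Tibial-SNI (blue triangles) arrays for miR-325, miR-130a and the 3 seed relatives; filled symbols are replicate 1 and open symbols replicate 2, grey lines join arrays of the same level and number (full, L3; dashed, L4), and black bars give the mean ± SD. miR-325 separates the injuries with means of 0.77 and −0.72, miR-130a has one steep line of 2.92, and the relatives overlap.

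Set against each other at the same level and number, where Sham drops out, Sural-SNI exceeded Tibial-SNI in miR-325 by 1.81 and 1.58 in L3-DRG and by 1.31 and 1.25 in L4-DRG. The mean was 1.49 on the log2 scale, or 2.80-fold. It was 1.56 in the arrays numbered 1 and 1.41 in those numbered 2. It was 1.69 at L3 and 1.28 at L4. Both L3 pairs were above both L4 pairs, and whether the levels differ was not tested, with 2 pairs at each.

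For miR-130a the same differences were 2.92 and 0.38 in L3-DRG and 0.47 and 0.39 in L4-DRG. The mean of 1.04, or 2.06-fold, therefore rested on a single pair. It was 1.70 in the arrays numbered 1 and 0.39 in those numbered 2, and it was 1.65 at L3 and 0.43 at L4. Without the Sham L3-DRG replicate 1, which removes that pair, the mean was 0.42. Sural-SNI was the higher in all 4 pairs for both miRs, as it was in 8 of 154 miRs (5.19%).

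The large pair of miR-130a was the one with the latest values. Its Ct was 37.88 in the Tibial-SNI array and 33.97 in the Sural-SNI array. That Tibial-SNI array also had the latest mean of the 3 references, 26.9 against a range of 23.9 to 26.9 over all arrays, and 8 miRs at a Ct of 35 or later. The Tibial-SNI L4-DRG replicate 1 array likewise had 8 such miRs, with a reference mean of 26.4, and its pair differed by 0.47. The part of late amplification in the large pair was not tested. In the arrays numbered 2, where the Ct of miR-130a was between 29.25 and 30.68, the difference was 0.39.

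Over the 154 miRs the difference between the injuries in replicate 1 had a median of −0.15 and ran from −2.65 to 2.30, and that in replicate 2 had a median of −0.02 and ran from −2.07 to 2.71. miR-325 ranked 6th from the highest in replicate 1 and 2nd in replicate 2. miR-130a ranked 4th in replicate 1 and 16th in replicate 2. Both numbers entered the contrast that chose the pair, so these ranks are not a replication. Over both, Sural-SNI was the higher in 61 of 154 miRs (39.6%).

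**Figure D4:**
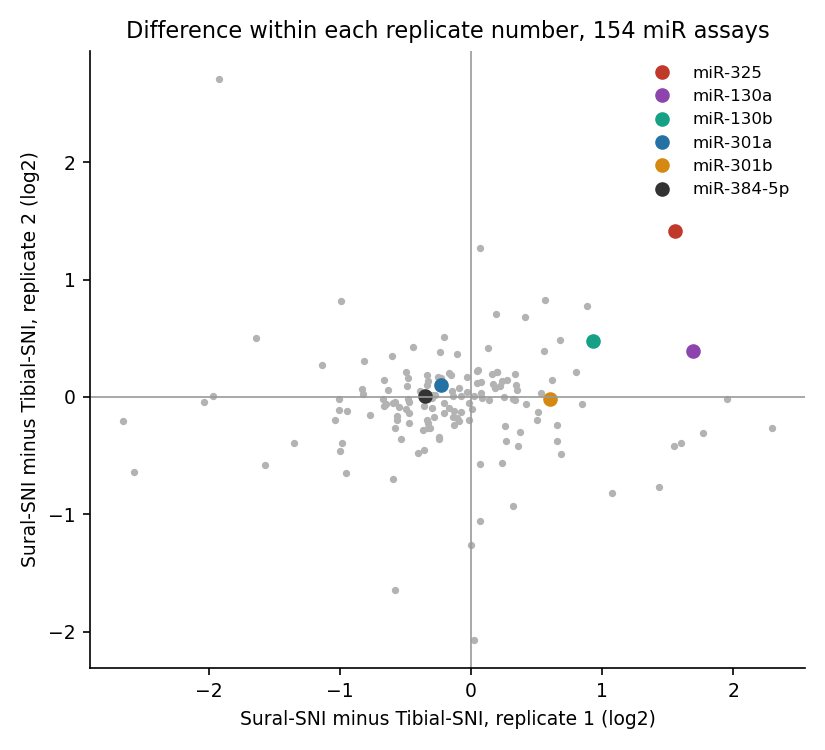
Sural-SNI minus Tibial-SNI (log2) in the arrays numbered 1 (x axis) and numbered 2 (y axis), each the mean of L3 and L4, for the 154 miRs (grey dots) with the named miRs in colour. miR-325 lies at 1.56 and 1.41, and miR-130a at 1.70 and 0.39. Both numbers entered the contrast that chose these miRs.

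Late miRs were in general the less repeatable ones. Among the 87 miRs with no Ct over 32, the median SD of log2(fold change) was 0.42 over the Sural-SNI arrays and 0.52 over the Tibial-SNI arrays. Among the 20 miRs with a Ct over 35 it was 1.12 and 1.61. miR-325 and miR-130a are both in the later class and had SDs of 0.03 and 0.74, in that order, over the Sural-SNI arrays. Over the Tibial-SNI arrays their SDs were 0.25 and 0.75. miR-325 had the smallest SD of that class in both injuries. The contrast that chose it depends on this spread, so nothing is read from its place.

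**Figure D5:**
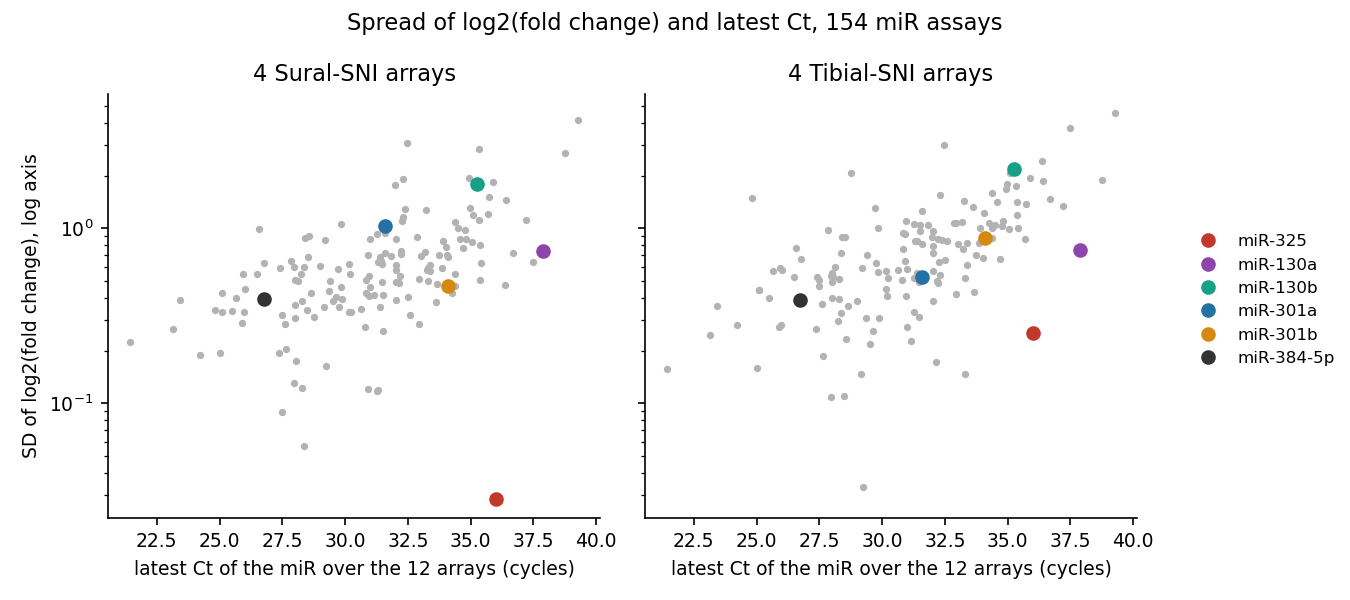
SD of log2(fold change) over 4 arrays (y axis, log scale) against the latest Ct of the miR over the 12 arrays (x axis, cycles), for Sural-SNI (left) and Tibial-SNI (right); each grey dot is 1 of 154 miRs. miR-325 lies below the other late miRs, at 0.03 and 0.25, and miR-130b near the top, at 1.80 and 2.18. The contrast that chose miR-325 depends on this spread.

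The ganglion level was not used to choose the pair. The L3-DRG holds the neurons of the saphenous nerve, which the surgery leaves intact, and the L4-DRG holds many of those of the sciatic nerve. The mean level of miR-325 was −8.17 in L3-DRG and −7.80 in L4-DRG (n = 6 each). That of miR-130a was −7.80 in L3-DRG and −7.09 in L4-DRG. L4-DRG was the higher in 4 of 6 pairs of the same group and number for miR-325, from −0.23 to 1.19, and in 5 of 6 for miR-130a, from −0.50 to 2.72.

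By limma over the 12 arrays the difference L4 minus L3 was 0.37 (SE 0.28) for miR-325 and 0.72 (SE 1.08) for miR-130a, both with an adjusted p of 0.987. No miR passed an adjusted p of 0.05 by limma (0 of 154), and 3 (1.95%) had an unadjusted p under 0.05, neither miR-325 nor miR-130a among them. With the replicate block the adjusted p by limma was 0.841 for miR-325 and 0.778 for miR-130a, with 9 miRs (5.84%) at an unadjusted p under 0.05. A difference between the ganglia was not detectable for either miR at this spread. Without the Tibial-SNI L3-DRG replicate 1 the difference for miR-130a was −0.0046.

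The relatives of miR-130a were read on the same arrays. miR-130b, with the same seed and 20 of 22 bases, had a log2(fold change) of 2.84 and 0.77 in L3-DRG and of −1.44 and 1.59 in L4-DRG of Sural-SNI. In Tibial-SNI it was 1.99 and 2.02 in L3-DRG and −2.46 and −0.61 in L4-DRG. The means were 0.94 ± 1.80 and 0.23 ± 2.18 (SD, n = 4), and the ranges overlapped almost wholly. Sural-SNI was the higher in 3 of 4 pairs, with a mean difference of 0.71.

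The log2(fold change) of miR-301a averaged 0.06 ± 1.03 over the Sural-SNI arrays (from −1.03 to 1.35) and 0.12 ± 0.53 over the Tibial-SNI arrays (from −0.67 to 0.43). That of miR-301b averaged 0.24 ± 0.47 over the former (from −0.28 to 0.85) and −0.05 ± 0.88 over the latter (from −1.04 to 1.01). For both, Sural-SNI was the higher in 2 of 4 pairs. miR-301a never reached a Ct of 32, and miR-301b did in 4 of 12 arrays, all numbered 1.

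In the limma fit over the 8 SNI arrays, Tibial-SNI minus Sural-SNI was −0.71 (SE 1.20) for miR-130b, 0.06 (SE 0.53) for miR-301a and −0.29 (SE 0.47) for miR-301b, each with an adjusted p of 0.995. None of the 3 seed relatives had an unadjusted p under 0.05, the smallest by limma being 0.554, and the smallest by the methods' t-test, one-tailed on the same 8 arrays, was 0.291. Their median difference was −0.29, beside 0.10 over all 154 miRs. In that fit 1 of 154 miRs (0.649%) passed an adjusted p of 0.05, and 4 (2.6%) had an unadjusted p under 0.05. The count fell to 0 by limma with the replicate block, where 6 (3.9%) had an unadjusted p under 0.05. It was also 0 in each of the 12 fits that lacked 1 array. A fit without a Sham array also lost the Sural-SNI and Tibial-SNI values set against it. The miR counted was miR-325, which these same values had chosen, so the call is no independent evidence and nothing is read from it.

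Against Sham, by limma over the 12 arrays, no miR passed an adjusted p of 0.05 in either injury (0 of 154 each). At an unadjusted p under 0.05 there were 0 miRs (0%) for Sural-SNI and 1 (0.649%) for Tibial-SNI, and with the replicate block there were 10 (6.49%) and 15 (9.74%). By limma the seed relatives had an adjusted p of 1.00 after Sural-SNI and of 0.997 after Tibial-SNI, and none had an unadjusted p under 0.05 with or without the block.

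None of the 4 miRs whose seeds share 6 bases in a row with that of miR-130a passed the test between the injuries. Tibial-SNI minus Sural-SNI was −0.15 (SE 0.49) for miR-19a and −0.02 (SE 0.30) for miR-19b, which are made from the same cluster of hairpins. It was −0.14 (SE 0.88) for miR-148a and 0.28 (SE 0.42) for miR-152, which share a seed with each other. All 4 had an adjusted p of 0.995 by limma. miR-384-5p, the hairpin neighbour of miR-325, differed by 0.17 (SE 0.32), also with an adjusted p of 0.995.

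In the arrays, miR-384-5p took values on both sides of 0 where miR-325 did not. Its log2(fold change) was 0.05 and 0.30 in L3-DRG and −0.53 and −0.44 in L4-DRG of Sural-SNI. In Tibial-SNI it was 0.54 and −0.25 in L3-DRG and −0.32 and 0.08 in L4-DRG. Its Ct lay between 24.8 and 26.8 throughout, so it was read well before miR-325.

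Likeness of pattern was taken as Pearson's r of the level over the 12 arrays after the mean of each level and number was removed, among 153 other miRs, as a description. The values of a set share their RNA, reference assays and surgery. Closest to miR-325 were miR-106a (r = 0.75), miR-130a (0.70) and miR-10b (0.58). Closest to miR-130a were miR-136 (0.78), let-7c (0.78) and let-7b (0.75), with miR-325 4th. The group differences that chose the pair remain in these values, so nothing is read from the r between miR-325 and miR-130a. Within a set of the same level and number, miR-130a spread most in L3-DRG replicate 1, from −11.02 to −8.10. Its r values, also those with its relatives, therefore rest largely on that set, where its Ct was 33.97 to 37.88.

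The seed relatives were further away from miR-130a, with r of 0.20 for miR-130b, 0.24 for miR-301a and −0.03 for miR-301b. miR-384-5p had an r of −0.32 with miR-325, rank 106 of 153. Among the closest miRs, miR-106a had a difference between the injuries of 0.55 and miR-10b of 0.97, the latter made of 1.95 in replicate 1 and −0.02 in replicate 2. miR-136, let-7c and let-7b had differences of 0.15, 0.26 and 0.10.

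The reference Ct ran from 16.7 to 18.7 for MammU6, from 28.1 to 34.0 for snoRNA135 and from 25.4 to 28.3 for U87. The mean Ct of MammU6 was 17.6 in the arrays numbered 1 and 18.5 in those numbered 2. That of snoRNA135 was 32.9 and 28.9, and that of U87 was 27.3 and 25.8, in the same order. The references thus moved in opposite directions between the numbers, and every level taken against their mean carries that disagreement. The mean Ct of the 154 miRs was 29.9 in the arrays numbered 1 and 27.8 in those numbered 2. Of the miRs listed as markers of cells that a ganglion may hold, the sensory neuron pair with rows (of 4 listed) had a summed level of 1.88 to 2.08 in Sham, 1.02 to 2.01 in Sural-SNI and 1.40 to 2.59 in Tibial-SNI. The endothelial pair, of interest for miR-130a, spanned 2.63 to 3.27 after the former injury and 2.98 to 3.77 after the latter, with 0 of 2 rows higher in Sural-SNI and a median difference of −0.40.

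No marker passed the test between the injuries. For the muscle markers Sural-SNI was the higher in 0 of 4 skeletal muscle rows, with a summed level of −0.17 to 1.35 against 0.01 to 4.41 in Tibial-SNI, and in 0 of 2 smooth muscle rows, with −2.23 to 0.50 against −0.97 to 0.92. The ranges overlapped, and the 4 skeletal muscle rows differed by −2.65 (rno-miR-1) to −1.64 (miR-1) in replicate 1 and by −0.64 (miR-133b) to 0.50 (miR-1) in replicate 2. The glial marker with a row, miR-338-3p, had a mean difference of 1.02, made of 2.30 in replicate 1 and −0.26 in replicate 2, and levels of −6.10 to −3.22 over the Sural-SNI arrays and of −10.3 to −2.97 over the Tibial-SNI arrays. The red blood cell marker differed by 0.14 and the 4 leukocyte rows by a median of −0.13. The part of these cells in the values of miR-325 and miR-130a was not tested.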

How the data were processed

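The authors ran TaqMan rodent microRNA cards for 40 cycles on total RNA of single ipsilateral DRG and kept the miRs detected on all 12 arrays. They deposited Ct values with no normalization for 160 wells, namely 154 miRs (147 with mouse and 7 with rat names) and 6 wells of 3 reference assays (4 of MammU6), with 0 missing values. Their deposited fold changes against Sham were not used. Groups came from the sample titles. From the Ct values, −ΔCt was computed against the mean of the 3 reference assays (MammU6 wells averaged first), and log2(fold change) against the Sham array of the same level and number, following the authors' methods. A Ct gives no count, so precision rests on the number of arrays.

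limma 3.58.1 in R 4.3.3 (lmFit, eBayes, two-sided, Benjamini-Hochberg over 154 miRs) compared L4 with L3 over 12 arrays with group as a term, the injuries over 8 SNI arrays, and each injury with Sham over 12 arrays with level as a term. Scripts were tested on simulated data. Deviations were taken from the mean of each group. Arrays of the same level and number deviated together (r from 0.46 to 0.81 over 12 pairs). Pairs of different number had r from −0.79 to −0.51 (24 pairs). L3 and L4 of the same group and number deviated together too (0.38 to 0.61 over 6 pairs). Taking off group means pushes different numbers to opposite signs, so these r show a shift between numbers and do not settle a pairing by level. The numbers were taken to pair the arrays, and a replicate block was run as an alternative. The other alternatives were 5 references, the mean Sham array of a level, Ct limits of 35 and 32, a variance trend, each array left out in turn and the methods' one-tailed t-test.

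The named miRs were the pair, the seed and near-seed relatives of miR-130a, the hairpin neighbour of miR-325, the 3 miRs most like each and the neighbours in Sham level, besides the reference and marker assays. The pair and all lists were chosen with earlier results of these data known. Sequences came from RefSeq tables of GRCr8. Python 3.11.15, pandas 2.3.3 and matplotlib 3.10.9 were used.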

Additional observations from a re-analysis of the deposited data

Results flagged for a closer look

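miR-325 differed by 1.49 (log2) between Sural-SNI and Tibial-SNI, with all 4 Sural-SNI values above 0 and all 4 Tibial-SNI values below 0. That difference was not tested independently: the miR was chosen on it, and its call in the fit over all miRs rests on the same values.

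Among the 30 sets of 4 values checked for a value far from the others, of which chance picks out about 1 in 20, there were 2. One was the pair of L3-DRG replicate 1 for miR-130a, where Sural-SNI exceeded Tibial-SNI by 2.92 against 0.38 to 0.47 in the other pairs, the gap being 0.965 of the range. The other was miR-301a in the L4-DRG Tibial-SNI replicate 2, with a log2(fold change) of −0.67 against 0.35 to 0.43 in the other Tibial-SNI arrays, a gap of 0.93 of the range.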

How the results depend on the processing

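Over 19 settings Sural-SNI stayed above Tibial-SNI for miR-325 (by 1.37 to 1.64, the injuries not overlapping in 19) and for miR-130a (by 0.42 to 1.34, not overlapping in 2). The 19 include the main setting, 12 that leave out 1 array each, and the mean Sham array, which cannot change a difference of means. All reuse the arrays that chose the pair, so the count is no independent support. The mean of miR-325 in Sural-SNI was 0.84 against MammU6, 0.70 against snoRNA135, 0.74 against snoRNA135 with U87 and 0.62 against the mean of all miRs. The count of 1 miR (miR-325, chosen on these values) that passed an adjusted p of 0.05 by limma for Tibial-SNI against Sural-SNI was 0 with each of the 5 other references, with the replicate block, with the mean Sham array of a level, with the Ct limits of 35 and 32, which take miR-325 out of the test, and without each array (0 to 0). It was 1 with the variance trend and, among 17 miRs past the methods' one-tailed threshold, 1 by the methods' t-test after Benjamini-Hochberg. Why it fell with the other references was not tested. The replicate block changed no other call, and the counts of 0 for L4 against L3 and for each injury against Sham were 0 in every setting run. With an array left out of a group at one level, the lone array left there was taken to vary like the others. Between the injuries, leaving out a Sham array also took out the SNI values set against it.

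Differences of relatives, none past the test, changed sign in places. Tibial-SNI minus Sural-SNI of miR-301a was −0.092 (MammU6) and −0.019 (mean of all miRs). For miR-19b it was 0.044 (snoRNA135), 0.071 (U87) and 0.058 (both). Against Sham, miR-301a was −0.011 (snoRNA135) and −0.095 (mean of all miRs) in Sural-SNI and −0.11 (mean of all miRs) in Tibial-SNI, where miR-130b was −0.0010 (mean of all miRs) and miR-301b was 0.045 (U87). Leaving out single arrays, Tibial-SNI minus Sural-SNI ran from −1.50 to 0.19 for miR-130b, −0.38 to 0.49 for miR-301a, −0.64 to 0.040 for miR-301b, −0.37 to 0.33 for miR-19a, −0.16 to 0.18 for miR-19b, −0.82 to 0.60 for miR-148a, −0.10 to 0.60 for miR-152 and −0.0067 to 0.41 for miR-384-5p. Sural-SNI minus Sham ran from −0.40 to 0.62 for miR-301a and −0.27 to 0.84 for miR-301b. Tibial-SNI minus Sham ran from −0.48 to 1.05 for miR-130b, −0.34 to 0.54 for miR-301a and −0.71 to 0.68 for miR-301b. L4 minus L3 of miR-130a ran from −0.0046 (without the Tibial-SNI L3-DRG replicate 1) to 1.30 (without the Sham L3-DRG replicate 2). Late Ct and 4 arrays a group limit what could be seen, above all for miR-130a in the arrays numbered 1.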
